A study of Mus musculus with 20 samples.

Results

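Fibrinogen is built from 3 chains, and the genes that encode them, Fga, Fgb and Fgg, were followed through kidney RNA-seq of mice with an inducible deletion in Fh1, the fumarate hydratase gene. They were taken from the count table by gene symbol as 3 of 24421 genes, and were chosen by their genotype difference at day 10 and its excess over day 5 in earlier results of these data. For the chains, comparisons that hold the Fh1-/- day 10 libraries are therefore given as a description, without a test, while other genes were tested there. The table holds 20 libraries in 4 groups of 5: Fh1-/- and Fh1+/+ kidneys, each taken 5 or 10 days after tamoxifen.

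Fh1-/- mice were homozygous for an Fh1 allele with loxP sites around exons 3 and 4, and Fh1+/+ littermates lacked that allele. Both genotypes carried R26 CreERT2 on both alleles, were of mixed C57BL/6 and 129/SvJ background, and were 12 weeks old when 3 intraperitoneal doses of 2 mg tamoxifen were given on alternate days. The recombinase is driven from Rosa26 in all tissues, so deletion was not limited to the kidney, and the liver of these animals was not analysed here. Fumarate hydratase converts fumarate to malate in the tricarboxylic acid cycle.

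Fibrinogen is a plasma glycoprotein made of a pair each of Aα, Bβ and γ chains, the products of Fga, Fgb and Fgg, joined by disulphide bonds in the endoplasmic reticulum. Hepatocytes are its main source, thrombin cleaves it to fibrin, and in the acute phase response interleukin-6 raises transcription of its genes through STAT3, with C/EBP factors at their promoters. Tubular epithelium of the injured kidney is also known to transcribe the 3 genes.

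The 3 genes lie in a cluster of 42140 bases on mouse chromosome 3 (build GRCm38, GENCODE vM21). Fgg is at chr3:83007724-83015049 and Fga at chr3:83026076-83033627, both on the plus strand, and Fgb is at chr3:83040141-83049863 on the minus strand. The gap between Fgg and Fga is 11026 bases and that between Fga and Fgb 6513 bases. The annotated exons cover 2093 bases of Fgg, 3010 of Fga and 3810 of Fgb. Of the Fgb exon bases 1705 lie within the ends that RefSeq gives that gene, so the level of Fgb per length depends on the gene model. Gm30097, a long non-coding RNA on the minus strand, overlaps the start of Fgg.

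The stretches before each start site are shown because the regulators measured below are known to act there. They come from RefSeq (GRCm38.p6), run 5′ to 3′ on the strand of the gene, and have motif letters in capitals. The Fgg stretch is chr3:83007474-83007723 on the plus strand, the Fga stretch chr3:83025903-83026075 on the plus strand and the Fgb stretch chr3:83049864-83050113 on the minus strand, and that of Fga stops where the GENCODE gene begins, 77 bases before the RefSeq start.
Fgg: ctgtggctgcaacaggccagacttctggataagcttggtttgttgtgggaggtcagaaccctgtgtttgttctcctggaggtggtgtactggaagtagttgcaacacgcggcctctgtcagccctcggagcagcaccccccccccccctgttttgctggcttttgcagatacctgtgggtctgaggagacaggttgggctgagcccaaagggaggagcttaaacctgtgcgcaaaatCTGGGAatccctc
Fga: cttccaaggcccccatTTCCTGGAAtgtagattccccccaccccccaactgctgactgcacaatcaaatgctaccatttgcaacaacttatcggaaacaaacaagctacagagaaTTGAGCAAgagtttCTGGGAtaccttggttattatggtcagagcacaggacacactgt
Fgb: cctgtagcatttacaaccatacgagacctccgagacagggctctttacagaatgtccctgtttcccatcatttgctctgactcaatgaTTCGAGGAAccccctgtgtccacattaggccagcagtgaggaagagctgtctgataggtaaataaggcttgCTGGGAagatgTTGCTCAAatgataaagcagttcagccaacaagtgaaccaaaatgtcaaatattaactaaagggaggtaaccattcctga

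On either strand of the 300 bases around each RefSeq start (250 before it and 50 after), 4 patterns were searched. A further planned pattern is not reported here, so the search does not cover every site known from these promoters. Fga and Fgb each held TTCNNNGAA, the letters bound by STAT3 (first base at -234 and -162 from the start), and TTGCNNAA, a C/EBP pattern (at -135 and -80). CTGGGA, the core of the type II interleukin-6 response element, was at -121 in Fga, at -91 in Fgb with another match 45 bases after the start, and at -13 in Fgg. In Fgg it was the only pattern found, and TATAAA was in none of the 3 windows. Of 32851 promoter windows of this length, 8.30% held the STAT3 letters, 10.8% the C/EBP letters, 31.8% CTGGGA and 13.6% TATAAA.

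Total counts were between 16654829 and 25001294 per library. Levels are in CPM, the counts of a gene scaled to the same total in each library. On day 10 Fh1 itself averaged 347 ± 60.6 CPM (SD, n = 5) in the Fh1-/- group against 238 ± 14.7 CPM (SD, n = 5) in the controls, and on day 5 it averaged 222 ± 16.6 against 249 ± 22.2 CPM (SD, n = 5 each). These counts are summed over the whole gene, including exons that are not deleted, so they do not check the genotype, and groups are named here by their labels. Fh1-/- day 10 replicates 1 and 3 stood apart from all other libraries on the first principal component of log2 CPM (at -125 and -128, against -30.3 to 31.3 for the other 18). Replicates 4 and 5 of that group were at -29.9 and -30.3. Replicate 2 was at 6.01, inside the range of Fh1+/+ day 10 libraries (0.45 to 30.4). Y-linked transcripts were at 97.1 CPM or more in 12 libraries and at 1.03 CPM or less in 8, among them Fh1-/- day 10 replicates 1, 3 and 5.

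All 3 chains were low in both day 5 groups and in Fh1+/+ kidneys at day 10, and high in Fh1-/- kidneys at day 10. Fga, which encodes the Aα chain, was at 6675, 382, 6792, 5552 and 2469 CPM in Fh1-/- day 10 replicates 1 to 5, and at 106, 26.5, 50.8, 28.9 and 31.5 CPM in the Fh1+/+ libraries of that day. Fgb, the Bβ chain, was at 2093, 12.7, 1969, 1214 and 356 CPM against 3.62, 2.67, 6.13, 3.28 and 1.52 CPM. Fgg, the γ chain, was at 5663, 209, 5376, 4525 and 1825 CPM against 31.6, 14.7, 23.0, 9.96 and 10.8 CPM. For each chain the genotypes did not overlap, replicate 2 was the lowest Fh1-/- library, and replicates 1 and 3 were the highest 2.

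On day 10 Fga averaged 4374 ± 2833 CPM (SD, n = 5) in the libraries labelled Fh1-/-, against 48.7 ± 33.4 CPM (SD, n = 5) in controls, a ratio of means of 89.7. The means of Fgb were 1129 ± 934 and 3.44 ± 1.70 CPM (SD, n = 5 each), a ratio of 328. The means of Fgg were 3519.5 ± 2392 and 18.0 ± 9.19 CPM (SD, n = 5 each), a ratio of 195. The log2 fold changes fitted by edgeR were 6.48 for Fga (SE 0.83), 8.35 for Fgb (SE 1.21) and 7.60 for Fgg (SE 0.90), which rank 8, 1 and 3 among the 14360 genes tested. The lowest Fh1-/- library, replicate 2, was 3.61 times the highest Fh1+/+ library for Fga, 2.06 times for Fgb and 6.62 times for Fgg. In bulk tissue, more transcript per cell and more cells that carry it cannot be told apart.

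**Figure D1:**
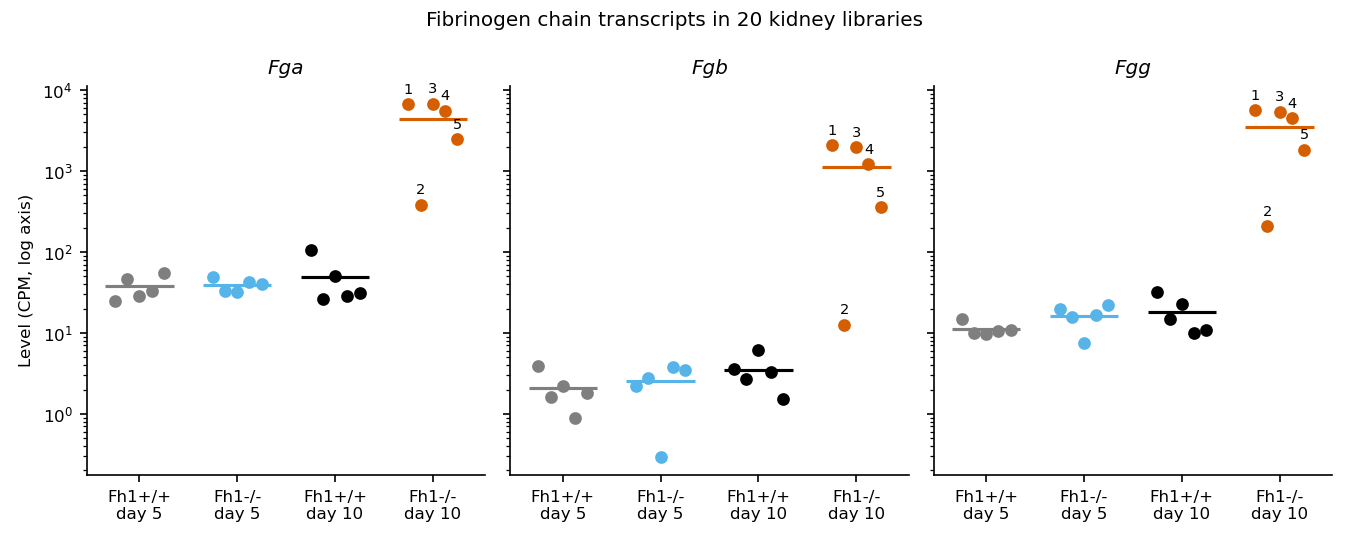
Level of Fga, Fgb and Fgg in each of the 20 kidney libraries, in CPM on a log axis; points are libraries, horizontal lines are group means, and the numbers beside the Fh1-/- day 10 points are replicates. The Fh1-/- day 10 libraries lie above all others for each chain, with replicate 2 lowest at 382, 12.7 and 209 CPM.

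Summed, the chains made up 1.21%, 0.0629%, 1.17%, 1.13% and 0.464% of each Fh1-/- day 10 library, replicates 1 to 5. The 95% Wilson interval was 1.20 to 1.21% for replicate 1 and 0.0617 to 0.0641% for replicate 2, and covers counting error only. In the 15 other libraries the share was between 0.00367% (0.00341 to 0.00396%) and 0.0138% (0.0133 to 0.0143%). By CPM per kilobase of exon (CPM per kb), the rank of Fgg among all genes was 8, 443, 8, 8 and 20 in these 5 libraries. Fga ranked 11, 322, 12, 10 and 22, and Fgb 58, 8080, 68, 89 and 492. In Fh1+/+ kidneys at day 10 the best rank of Fgg was 3163, that of Fga 1434 and that of Fgb 10281.

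At day 5 the genotypes overlapped for each chain. Fga was at 48.5, 33.0, 31.7, 43.1 and 39.8 CPM in Fh1-/- and 24.99, 46.0, 29.0, 33.1 and 54.3 CPM in Fh1+/+ kidneys, with both the highest and the lowest value in Fh1+/+. Fgb was at 2.20, 2.76, 0.291, 3.82 and 3.50 CPM against 3.89, 1.60, 2.18, 0.879 and 1.82 CPM, where the 0.291 CPM of replicate 3 stands for 5 reads. Fgg was at 19.9, 15.9, 7.44, 16.7 and 22.0 CPM against 14.8, 10.0, 9.65, 10.5 and 10.97 CPM, so that 4 of 5 Fh1-/- libraries were above all Fh1+/+ libraries and replicate 3 was below them. The fitted log2 fold changes were 0.05 for Fga (SE 0.21, 95% interval -0.40 to 0.50), 0.26 for Fgb (SE 0.53, -0.91 to 1.44) and 0.54 for Fgg (SE 0.25, -0.0056 to 1.08). None passed edgeR's quasi-likelihood test over 14404 genes (adjusted p = 1.0 for each, unadjusted p = 0.80, 0.63 and 0.052). Of all genes 0.0208% were called higher and 0.0139% lower at day 5, a call being an adjusted p under 0.01 with an absolute log2 fold change over 0.58.

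In Fh1+/+ kidneys the change from day 5 to day 10 was 0.38 for Fga (SE 0.38), 0.72 for Fgb (SE 0.42) and 0.68 for Fgg (SE 0.30) on the log2 scale. None passed the test (edgeR, adjusted p = 0.948 for each, unadjusted p = 0.34, 0.11 and 0.042), and of the 14501 genes tested 0% were called. The Fh1+/+ day 10 replicate 1 library held the highest Fga and Fgg of its group, and without it the Fga change was -0.12. In Fh1-/- kidneys the change between the days was 6.80 for Fga (SE 0.73), 8.80 for Fgb (SE 1.30) and 7.74 for Fgg (SE 0.87). The genotype difference at day 10 minus that at day 5 was 6.42 for Fga (SE 0.79), 8.08 for Fgb (SE 1.23) and 7.06 for Fgg (SE 0.84). These last 6 values are a description.

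Without Fh1-/- day 10 replicates 1 and 3, which stood apart from the rest, the day 10 fold changes were 5.86 for Fga, 7.27 for Fgb and 6.94 for Fgg on the log2 scale. Since the genotypes did not overlap over all day 10 libraries, they could not overlap within libraries of like Y-linked level. The levels by Y-linked transcripts are therefore a description. Among the day 10 libraries with low Y-linked transcripts Fga was at 2469 to 6792 CPM in 3 Fh1-/- and 26.5 to 50.8 CPM in 2 Fh1+/+ libraries. Among those with high Y-linked transcripts it was at 382 and 5552 CPM in 2 Fh1-/- and 28.9 to 106 CPM in 3 Fh1+/+ libraries.

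A ratio between chains within a library does not depend on its depth, and shows whether the 3 genes moved by equal factors. Per kilobase, Fga was above Fgg in each of the 15 libraries outside the Fh1-/- day 10 group, and Fgg was above Fga in 4 of the 5 Fh1-/- day 10 libraries, all but replicate 2. The log2 ratio of Fgg to Fga was 0.29, -0.34, 0.19, 0.23 and 0.09 in Fh1-/- day 10 replicates 1 to 5, a mean of 0.09 ± 0.25 (SD, n = 5). It was -0.84 ± 0.36 (SD, n = 5) in Fh1+/+ at day 10, -0.81 ± 0.47 in Fh1-/- at day 5 and -1.18 ± 0.62 in Fh1+/+ at day 5. At day 10 the difference was 0.93 (SE 0.20), and the ranges touched only in replicate 2, at -0.34 beside -0.33 in Fh1+/+ replicate 2. The Fh1-/- library of this pair had high and the Fh1+/+ library low Y-linked transcripts. Outside the Fh1-/- day 10 group the ratio was -0.62 to -0.23 in libraries with low Y-linked transcripts and -1.78 to -0.76 with high. At day 10 it was 0.09 to 0.29 in Fh1-/- and -0.62 and -0.33 in Fh1+/+ libraries with low Y-linked transcripts. With high ones it was -0.34 and 0.23 against -1.22 to -1.01. This split was found after seeing the data and was not tested.

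Fgb was the least abundant chain per length in each of the 20 libraries. Its share of the summed CPM per kb was 10.0, 1.44, 9.67, 7.36 and 5.23% in Fh1-/- day 10 replicates 1 to 5, against 1.85 to 5.67% in Fh1+/+ at day 10, so replicate 2 lay below and replicates 1, 3 and 4 above that range. Fga per kb was 4.04, 38.2, 4.37, 5.79 and 8.78 times Fgb in the 5 libraries. The log2 ratio of Fgb to Fga was -3.01 ± 1.33 (SD, n = 5) in the Fh1-/- libraries and -4.09 ± 0.82 (SD, n = 5) in the day 10 controls, a difference of 1.08 (SE 0.70) with overlapping ranges. For Fgb to Fgg the difference was 0.15 (SE 0.56), and it was -0.053 without Fh1-/- replicate 1, -0.050 without replicate 3 and -0.38 without both. With the RefSeq ends for length, the mean share of Fgb in Fh1-/- day 10 libraries was 13.6% in place of 6.75%. In Fh1+/+ at day 10 it was 8.22% in place of 3.94%. Differences in share thus depend on the gene model, while differences between groups in log2 ratios keep their value.

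**Figure D2:**
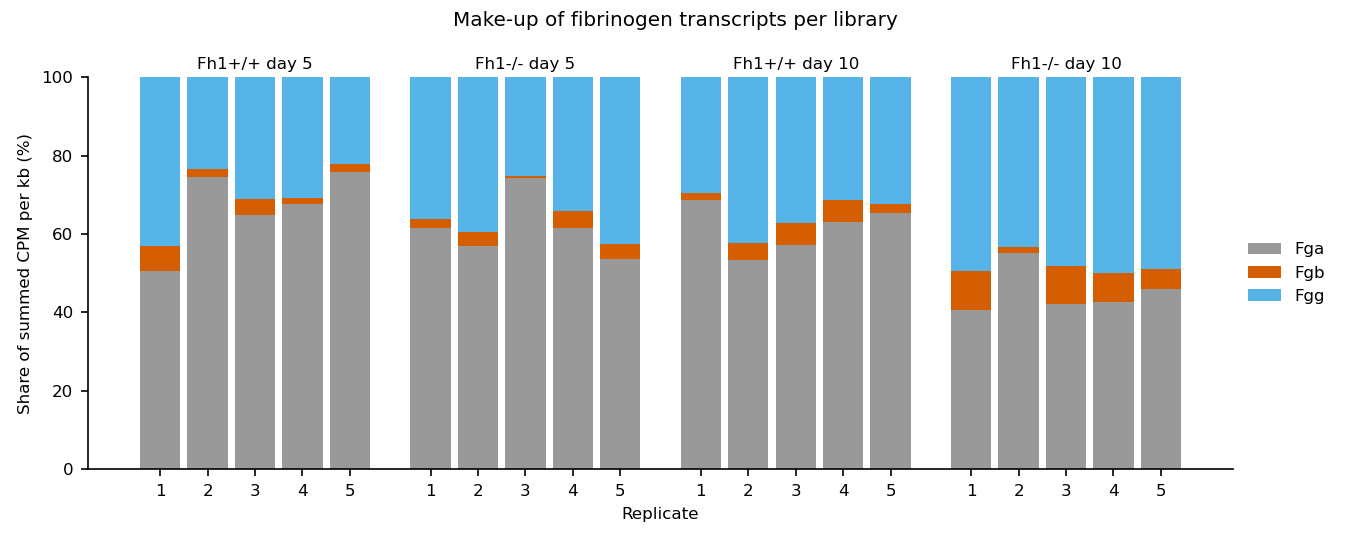
Share of Fga, Fgb and Fgg in the summed CPM per kb of the 3 genes, in percent, for each library by group and replicate. Fga holds 50.6% or more of each bar outside the Fh1-/- day 10 group, and 40.5 to 45.9% in Fh1-/- day 10 replicates 1, 3, 4 and 5.

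The ratios were tested in the comparisons that leave out the Fh1-/- day 10 libraries. Between genotypes at day 5 the log2 difference was -0.08 (SE 0.79) for Fgb to Fga, -0.45 (SE 0.53) for Fgb to Fgg and 0.37 (SE 0.35) for Fgg to Fga. Between the days in Fh1+/+ kidneys it was 0.53 (SE 0.60), 0.19 (SE 0.40) and 0.34 (SE 0.32). In a two-sided exact permutation test of 5 against 5 libraries, for which the smallest possible p is 0.00794, none of the 6 passed (p from 0.310 to 0.913, adjusted p from 0.690 to 0.913). The test did not hold the Y-linked level fixed, so the spread of Fgg to Fga with it stayed within the groups. When each library was left out in turn, the Fgg to Fga differences were 0.22 to 0.60 and 0.18 to 0.57. Both were highest without Fh1+/+ day 5 replicate 1, which had low Y-linked transcripts (exact permutation p = 0.079 for each).

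In the 15 libraries where the chains were low, Fgb and Fgg varied together. Pearson's r of log2 CPM was 0.711 (permutation p = 0.0021, adjusted over 3 pairs 0.0064) and Spearman's rho 0.721 (permutation p = 0.0033, adjusted 0.0098), and r was 0.729 for deviations from the group means. Without the 2 libraries farthest from the median of Fgb, r was 0.645 (permutation p = 0.018, adjusted 0.054), so that the relation leans on them. For Fga and Fgg r was 0.620 (permutation p = 0.012, adjusted 0.018) and rho 0.529 (permutation p = 0.045, adjusted 0.067), and without the 2 farthest libraries r was 0.50 (permutation p = 0.083), so this relation rests on those libraries. For Fga and Fgb r was 0.231 (permutation p = 0.38) and rho 0.0929 (permutation p = 0.74), with r 0.193 (permutation p = 0.54) without the 2 farthest. Fgb rested on 5 to 111 reads per library here, which limits its precision. Libraries with low and high Y-linked transcripts were pooled, also in the deviations from group means. Fgb was at 2.67 to 6.13 CPM with low and 0.291 to 3.82 CPM with high Y-linked transcripts. Fgg was at 14.7 to 23.0 and 7.44 to 31.6 CPM. The part of Y-linked level in these correlations was not tested.

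**Figure D3:**
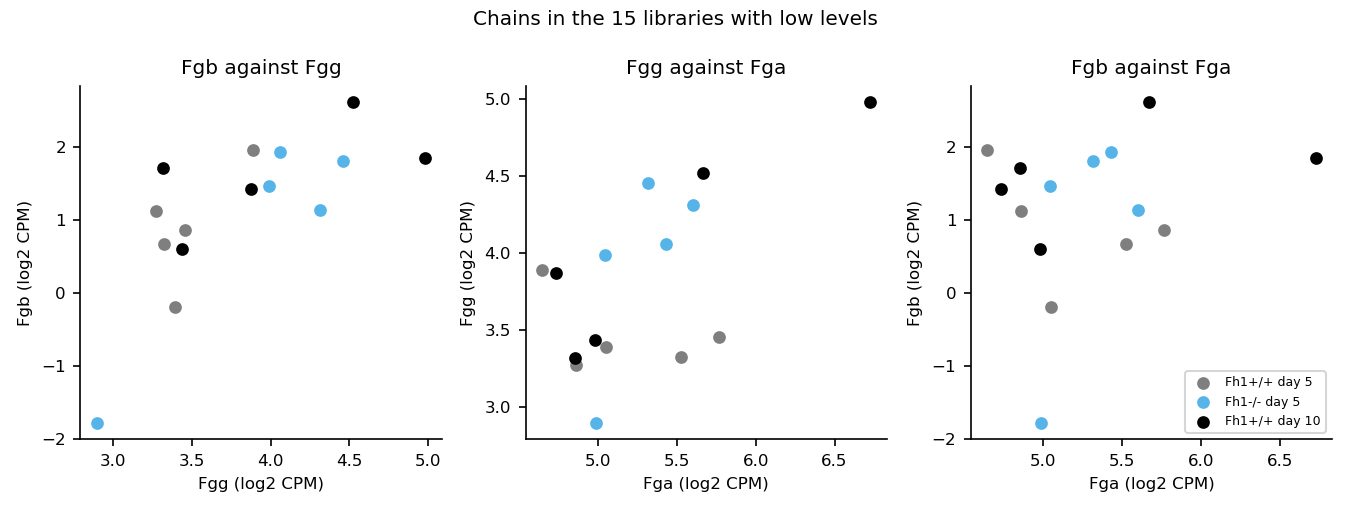
Pairs of chains in the 15 libraries outside the Fh1-/- day 10 group, in log2 CPM on both axes, with colour for the group. Fgb and Fgg lie along a rising band (r = 0.711), and Fgb and Fga do not (r = 0.231).

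By the root mean square (RMS) difference between log2 CPM profiles, each centred on its mean over the 20 libraries, the gene nearest to Fga was Fgg (0.61), followed by BC021614 (0.89), Lrg1 (1.00), Saa1 (1.17) and Fgb (1.18). The gene nearest to Fgb was Fgg (0.76), then Fga, Saa1 (1.40), Lcn2 (1.56) and Lrg1 (1.57), and nearest to Fgg were Fga, Fgb, BC021614 (1.32), Saa1 (1.33) and Lrg1 (1.34). The median over the 14934 genes was 2.88 for Fga, 3.69 for Fgb and 3.34 for Fgg. BC021614 was at 11.8, 2.74, 14.9, 12.1 and 3.62 CPM in the Fh1-/- day 10 libraries and 0.160 ± 0.143 CPM (SD, n = 5) in Fh1+/+. When each profile was also scaled to the same SD, 2 of the 5 nearest genes to Fga, 1 of those to Fgb and 2 of those to Fgg were shared, all other chains, and Stat3 and Mcl1, an inhibitor of apoptosis, were among the 5 nearest to both Fgb and Fgg.

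The chains were compared with 129 genes in 9 lists of the clotting system, its regulators and the injury response. At day 10 edgeR called 0 of the 108 members tested (4 of 14360 genes, or 0.0279%, were called higher, and 0.0279% lower), and DESeq2 called 19 higher and 2 lower, or 17.6% and 1.85% of members against 3.49% and 2.05% of all genes. At an unadjusted p under 0.05 edgeR had 32 members higher and 10 lower (29.6% and 9.26%, against 15.1% and 11.9% of all genes). Groups did not overlap for 9 members that were higher and 4 that were lower (8.33% and 3.70%, against 3.96% and 3.68%). Without Fh1-/- day 10 replicate 2 edgeR called 11 of 109 members higher and 0 lower, against 1.15% and 0.469% of all genes in that fit. At day 5 edgeR and DESeq2 called 0 of 107 members, and with an unadjusted p below 0.05 edgeR had 4 higher and 1 lower, against 2.42% and 2.37% of all genes.

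In the list of interleukin-6 family signalling and fibrinogen gene regulators, 6 of 19 tested members were higher and 2 lower with an unadjusted p below 0.05. These are 31.6% and 10.5%, against 15.1% and 11.9% of all genes. DESeq2 called 5 higher and 0 lower (26.3% and 0%, against 3.49% and 2.05% of all genes). The median log2 fold change was 0.13 (-0.00073 over all genes). Stat3, the transcription factor of this pathway, was at 569, 166, 579, 371 and 332 CPM in Fh1-/- day 10 replicates 1 to 5 and 103 ± 17.03 CPM (SD, n = 5) in Fh1+/+ (log2 fold change 1.96, SE 0.30, edgeR adjusted p = 0.021). Socs3, its feedback inhibitor, was at 247, 9.40, 264, 48.5 and 28.4 CPM against 4.12 ± 1.32 CPM (edgeR adjusted p = 0.032). Both were higher in all 5 Fh1-/- libraries than in any Fh1+/+ library, with replicate 2 lowest, and both missed the edgeR threshold of 0.01 and were called higher by DESeq2.

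Cebpb and Cebpd, C/EBP factors of the acute phase, were at 14.3 to 86.5 and 14.5 to 160 CPM in Fh1-/- against 5.58 to 19.1 and 7.47 to 38.6 CPM in Fh1+/+ kidneys (edgeR adjusted p = 0.066 and 0.071), with replicate 2 inside the Fh1+/+ range for both. Osmr, the oncostatin M receptor, was at 10.6 to 48.0 against 8.84 to 15.2 CPM. Il11ra1, the interleukin-11 receptor, was at 30.9 to 43.7 against 47.1 to 58.4 CPM (log2 fold change -0.50, edgeR adjusted p = 0.048). The receptor genes Il6ra (2.15 to 6.70 against 1.63 to 3.37 CPM) and Il6st (85.2 to 186 against 99.3 to 119 CPM) overlapped. Il6 itself did not pass the filter on low counts and was at 1.90 and 1.63 CPM in Fh1-/- day 10 replicates 1 and 3 at 0.0447 CPM or less in the 3 others, and at 0.0461 CPM or less in Fh1+/+. In replicate 4 Il6 had 0 reads and Fga was at 5552 CPM, but at so few reads the level of Il6 is imprecise. The part of interleukin-6, from the kidney or elsewhere, in the level of the chains was not tested.

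Among 17 other acute phase proteins, 12 could be tested, of which 8 were higher and 0 lower with an unadjusted p below 0.05. These are 66.7% and 0%, against 15.1% and 11.9% of all genes. DESeq2 called 5 higher (41.7%, against 3.49% of all genes). The median log2 fold change was 1.94, or 0.64 without Fh1-/- day 10 replicates 1 and 3. C3, complement component 3, was at 6249, 380, 6807, 1602 and 890 CPM in Fh1-/- day 10 replicates 1 to 5 and 113 ± 48.7 CPM (SD, n = 5) in Fh1+/+. Lrg1, a leucine-rich glycoprotein of plasma, was at 1245, 12.0, 1548, 161 and 74.6 CPM against 6.36 ± 3.23 CPM. Saa1, serum amyloid A, was at 709, 2.07, 697, 102 and 42.9 CPM against 2.54 ± 2.23 CPM, and Serpina3n, a serine protease inhibitor, at 687, 8.84, 717, 18.0 and 15.9 CPM against 4.25 ± 3.16 CPM. Both have near-identical relatives that may share reads.

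In tubular injury genes, 6 of 8 were higher and 0 lower with an unadjusted p below 0.05 (75% and 0%, against 15.1% and 11.9% of all genes). DESeq2 called 4 higher (50%, against 3.49% of all genes), and the median was 3.23, or 0.61 without replicates 1 and 3. Lcn2, neutrophil gelatinase-associated lipocalin, was at 8612, 13.6, 9421, 108 and 138 CPM in Fh1-/- day 10 replicates 1 to 5 and 13.3 ± 8.74 CPM (SD, n = 5) in Fh1+/+. Spp1, osteopontin, was at 123162, 2673, 114828, 11928 and 13068 CPM against 1333 ± 614 CPM. Krt20, a keratin of injured tubules, was at 1588, 6.05, 1582, 5.23 and 4.60 CPM against 4.40 ± 0.75 CPM, and Sox9, a factor of tubular repair, was at 64.8, 1.79, 62.9, 23.9 and 3.04 CPM against 1.63 ± 0.67 CPM.

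The 5 Fh1-/- day 10 libraries thus differed between genes in how replicate 4 stood to replicates 1 and 3. Replicate 4 held 81.7% of the highest library's CPM for Fga, 57.98% for Fgb and 79.9% for Fgg. It held 64.1% for Stat3, 43.7% for Cebpd, 23.5% for C3, 18.3% for Socs3, 10.4% for Lrg1, 1.15% for Lcn2 and 0.329% for Krt20. The mean of replicates 1 and 3 was 1.21 times replicate 4 for Fga, 1.67 times for Fgb and 1.22 times for Fgg, and it was 83.5 times for Lcn2 and 303 times for Krt20. BC021614 was at 80.8% in replicate 4 and 1.11 times, but it was picked for a profile like that of the chains over these same libraries. A high replicate 4 was not limited to these genes. For Mcl1 and Itgb3 it was the highest library, and the mean of replicates 1 and 3 was 0.88 and 0.93 times replicate 4. Mcl1 too had been picked for a profile like those of Fgb and Fgg over these libraries, when scaled to the same SD. Itgb3 was named for its small p at day 10.

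**Figure D4:**
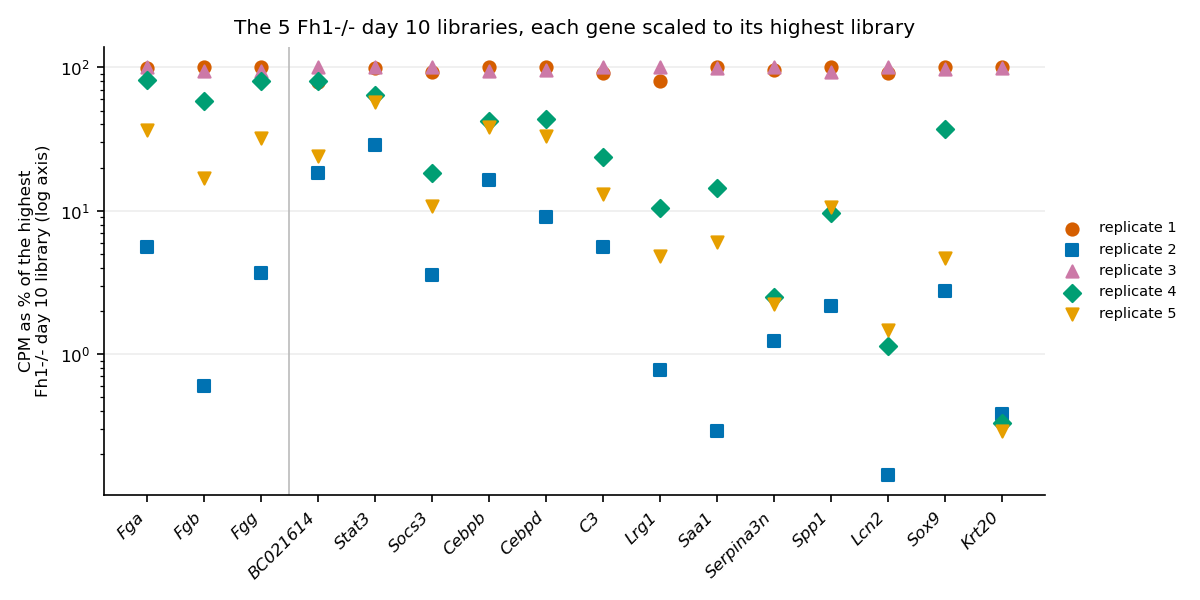
CPM of each gene in the 5 Fh1-/- day 10 libraries, in percent of the highest of them, on a log axis, for the 3 chains and 13 other genes, with a marker for each replicate. Replicate 4 lies at 57.98 to 81.7% for the chains and at 0.329% for Krt20.

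Among coagulation factors, 1 of 9 tested was higher and 0 lower with an unadjusted p below 0.05. These are 11.1% and 0%, against 15.1% and 11.9% of all genes, and the median log2 fold change was -0.32. Kng1, a kininogen with a close relative in Kng2, was at 0.672 to 14.8 CPM in Fh1-/- and 0.692 to 2.12 CPM in Fh1+/+ kidneys at day 10, with replicate 2 lowest, and DESeq2 called it higher. Kng2 was at 357 to 648 against 304 to 506 CPM, F3, tissue factor, at 19.9 to 37.8 against 13.1 to 68.1 CPM, and Vwf, von Willebrand factor, at 3.38 to 11.8 against 4.99 to 19.7 CPM, all overlapping. F2, prothrombin, whose product thrombin acts on fibrinogen, did not pass the filter, and was at 0.447 CPM or less in the 5 Fh1-/- day 10 libraries.

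Among anticoagulants, 2 of 9 were higher and 2 lower with an unadjusted p below 0.05, with a median of 0.12. Each count is 22.2%, against 15.1% higher and 11.9% lower of all genes. Serpina10, the protein Z-dependent protease inhibitor, was at 57.0, 6.49, 55.2, 29.2 and 23.5 CPM in Fh1-/- day 10 replicates 1 to 5 and 1.01 to 6.30 CPM in Fh1+/+ (log2 fold change 3.31, SE 0.60, edgeR adjusted p = 0.032, called higher by DESeq2). Proz, protein Z, was at 1.04 to 4.14 against 1.82 to 8.47 CPM. Serpinc1, antithrombin, was at 0.355 to 0.952 against 1.44 to 2.08 CPM and was called lower by DESeq2, and Pros1, protein S, was at 23.9 to 83.0 against 21.7 to 37.4 CPM.

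In fibrinolysis, 3 of 12 were higher and 0 lower with an unadjusted p below 0.05, DESeq2 called 0, and the median was 0.14. The first 2 counts are 25% and 0%, against 15.1% and 11.9% of all genes. Plaur, the urokinase receptor, was at 146 and 154 CPM in replicates 1 and 3 and 3.36 to 11.6 CPM in the 3 others, against 4.81 to 10.2 CPM in Fh1+/+. S100a10, a plasminogen receptor subunit, was at 587 and 561 CPM and 91.6 to 147 CPM, against 78.3 to 114 CPM. For both genes the high values were those of replicates 1 and 3, and without these libraries the log2 fold changes were 0.11 and 0.32. The activators Plau (348 to 1028 against 919 to 1440 CPM) and Plat (51.0 to 192 against 29.1 to 142 CPM) overlapped.

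Among 11 receptors of fibrinogen and fibrin, 2 were higher and 2 lower with an unadjusted p below 0.05, with a median of -0.25. Each count is 18.2%, near the 15.1% higher and 11.9% lower of all genes. Itgb3, the integrin subunit that pairs with αv or αIIb, was at 11.8, 4.87, 12.4, 13.05 and 8.89 CPM in Fh1-/- day 10 replicates 1 to 5 and 1.93 to 3.76 CPM in Fh1+/+ (log2 fold change 1.82, SE 0.28, edgeR adjusted p = 0.021). Icam1, a leukocyte adhesion molecule that binds fibrinogen, was at 227, 37.95, 250, 106 and 76.6 CPM against 22.4 to 34.2 CPM (log2 fold change 2.27, SE 0.45, edgeR adjusted p = 0.038). Neither overlapped between genotypes, and DESeq2 called both higher. Itga2b, the platelet αIIb subunit, was at 2.88 to 9.43 against 8.40 to 10.6 CPM, and Itgb2, a leukocyte integrin subunit, at 2.64 to 12.1 against 7.15 to 15.2 CPM.

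Among genes that share the fibrinogen-related domain, 2 of 16 were higher and 4 lower with an unadjusted p below 0.05, with a median of -0.38. These are 12.5% and 25%, against 15.1% and 11.9% of all genes. Angptl4, an inhibitor of lipoprotein lipase, was at 449, 82.0, 500, 178 and 369 CPM in Fh1-/- day 10 replicates 1 to 5 against 20.1 to 114 CPM in Fh1+/+, and DESeq2 called it higher. Angptl1 was at 0.447 to 7.37 against 0.184 to 0.718 CPM and Angptl2 at 17.6 to 25.7 against 21.9 to 69.1 CPM, both angiopoietin-like proteins. Mfap4, a microfibril protein, was at 0.0710 to 1.12 against 1.18 to 3.46 CPM, and DESeq2 called it lower.

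Among the chaperones, disulphide isomerases and export receptors that serve secreted proteins, 2 of 12 were higher and 0 lower with an unadjusted p below 0.05. These are 16.7% and 0%, against 15.1% and 11.9% of all genes. DESeq2 called 0, and the median was 0.08. Hspa5, the chaperone BiP, was at 468 to 969 CPM in Fh1-/- and 371 to 641 CPM in Fh1+/+ kidneys at day 10. Mcfd2, part of the export receptor for clotting factors, was at 227 to 427 against 206 to 249 CPM and Ero1lb, an oxidase that feeds disulphide bonds, at 9.91 to 17.1 against 7.42 to 12.6 CPM. Canx, calnexin, was at 431 to 497 against 514 to 578 CPM, which did not overlap (log2 fold change -0.18, SE 0.10, edgeR adjusted p = 0.27).

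**Figure D5:**
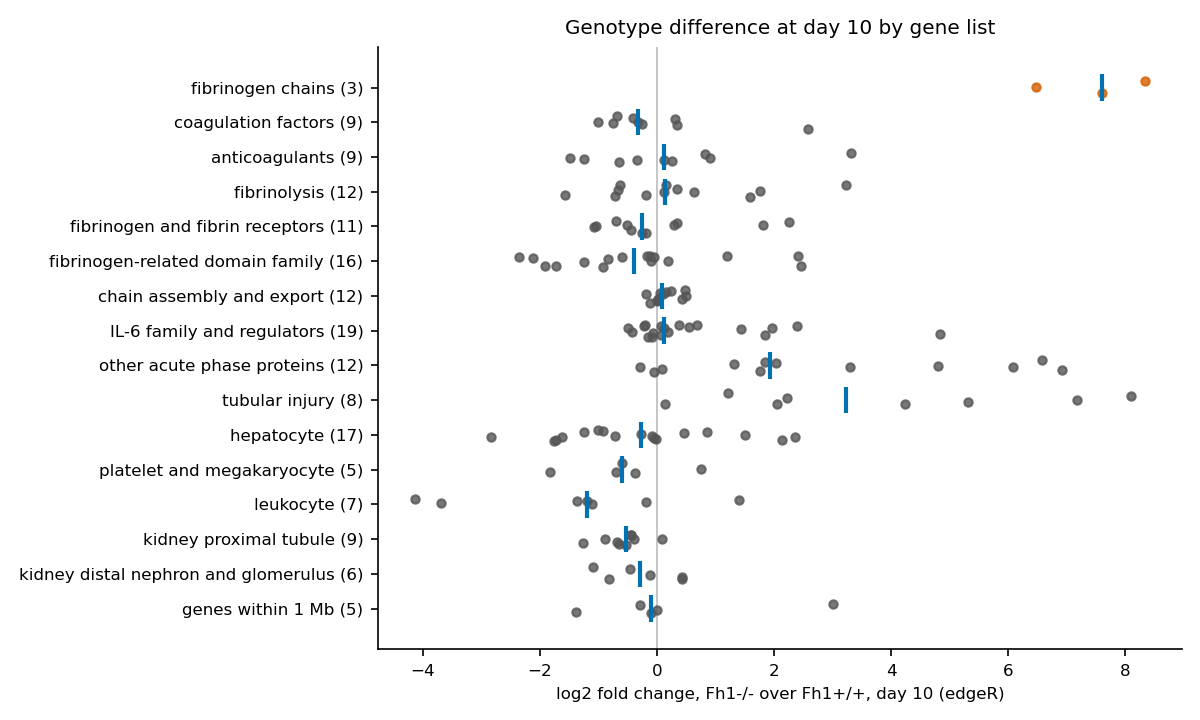
Log2 fold change of Fh1-/- over Fh1+/+ kidneys at day 10, from edgeR, for each tested gene by list, with the number of tested genes in brackets and a bar at the list's median. The chains lie at 6.48 to 8.35, the tubular injury genes have a median of 3.23 and the coagulation factors one of -0.32.

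Markers of cells that carry or make fibrinogen were read in the same libraries. Of 25 hepatocyte markers, 17 could be tested at day 10, and 4 were higher and 5 lower with an unadjusted p below 0.05. These are 23.5% and 29.4%, against 15.1% and 11.9% of all genes, and the median log2 fold change was -0.28. Alb, albumin, a member named after its values were seen, was at 3.62, 5.04, 3.55, 3.63 and 10.6 CPM in the Fh1-/- day 10 libraries. It was at 4.32 to 28.3 CPM in Fh1+/+. The summed level of the list was 653 to 804 CPM in Fh1-/- and 271 to 678 CPM in Fh1+/+ kidneys at day 10, and 406 to 1349 and 320 to 647 CPM at day 5. Cyp2c29 had 0 reads in the Fh1-/- day 10 libraries, and most of the sum came from Apob, Ttr and Apoc3. Apob was at 290 to 533 against 149 to 313 CPM, Ttr at 56.3 to 319 against 43.8 to 203 CPM and Apoc3 at 14.4 to 126 against 11.1 to 25.2 CPM. Which cells the chain transcripts came from was not tested.

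The 10 platelet and megakaryocyte markers summed to 6.51 to 12.3 CPM in Fh1-/- and 13.5 to 16.3 CPM in Fh1+/+ kidneys at day 10, with Gp6 at 0 reads in Fh1-/- and Ppbp, platelet basic protein, at 0.0893 to 0.614 against 1.01 to 1.84 CPM, and Gp1bb, part of the von Willebrand factor receptor, at 0.840 to 1.25 against 0.954 to 1.99 CPM. The 5 red cell genes summed to 0.440 to 1.1 CPM in Fh1-/- and 0.276 to 1243 CPM in Fh1+/+, with Hbb-bs, a β-globin, at 0 to 0.447 and 0.110 to 583 CPM, and Hba-a1 and Hba-a2, α-globin genes with equal values in these libraries, at 0 to 0.430 and 0.0552 to 258 CPM. The 9 leukocyte markers summed to 57.0 to 110 against 117 to 170 CPM, with Csf1r, a macrophage receptor, at 13.6 to 88.6 against 82.1 to 94.1 CPM, Ptprc, CD45, at 1.56 to 6.99 against 10.5 to 14.7 CPM, and Cd68, a macrophage protein, at 37.4, 9.07, 39.8, 3.25 and 3.48 CPM in replicates 1 to 5 against 3.64 to 10.999 CPM. Of the 7 leukocyte markers tested Cd68 was the 1 with a log2 fold change above 0, at 1.40, or -0.39 without replicates 1 and 3. At day 10 the hepatocyte and red cell sums overlapped between genotypes, and the platelet and leukocyte sums were lower in each Fh1-/- library than in any Fh1+/+ library.

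No kidney marker of the lists was at 0 reads in all libraries of a group. The 9 proximal tubule markers summed to 3247, 12718, 3559, 8524 and 8356 CPM in Fh1-/- day 10 replicates 1 to 5 and 11001 to 12927 CPM in Fh1+/+, so that the order of the libraries was close to the reverse of that of the chains. Slc34a1, a phosphate transporter, was at 369, 4389, 502, 2223 and 1902 CPM against 3348 to 5854 CPM, Lrp2, megalin, at 804 to 2537 against 1811 to 3033 CPM and Aqp1, a water channel, at 368 to 1817 against 1298 to 1971 CPM. The 6 markers of the distal nephron and glomerulus summed to 8498 to 19259 against 7193 to 13567 CPM, with Umod, uromodulin, at 6946 to 15553 against 4769 to 10212 CPM, Slc12a3, the thiazide-sensitive transporter, at 1020 to 1346 against 1038 to 1411 CPM and Slc12a1, the loop transporter, at 75.5, 988, 68.3, 810 and 1558 CPM against 1129 to 1908 CPM. The part of these differences in the level of the chains was not tested.

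The genes beside the cluster were read for a difference over the region. Of 11 counted genes within 1 Mb, 5 could be tested at day 10, and the median log2 fold change was -0.10. Of these, edgeR called 0 and DESeq2 called 1 higher, where DESeq2 called 3.49% of all genes higher. Plrg1, a spliceosome protein 0.00566 Mb from Fgb, was at 33.6, 27.3, 32.5, 35.9 and 34.8 CPM in Fh1-/- day 10 replicates 1 to 5 and 30.9 to 34.96 CPM in Fh1+/+ (log2 fold change -0.0029, SE 0.10). Lrat, the lecithin retinol acyltransferase, 0.104 Mb from the cluster, was at 1.60, 18.8, 2.41, 10.9 and 9.56 CPM against 5.74 to 20.4 CPM, lowest in replicates 1 and 3. Tlr2, a pattern recognition receptor 0.786 Mb away, was the gene that DESeq2 called, at 92.4, 3.75, 88.8, 6.44 and 11.5 CPM against 3.88 to 5.88 CPM, with a log2 fold change of 3.01, or 0.55 without replicates 1 and 3. Sfrp2, a Wnt pathway protein 0.716 Mb away, was at 0.0710 to 2.57 against 2.17 to 5.63 CPM, and Map9, a microtubule protein 0.612 Mb away, at 4.48 to 8.28 against 5.69 to 8.87 CPM. Rbm46, Rbm46os, Npy2r and 1700028M03Rik, also close by, did not pass the filter on low counts.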

How the data were processed

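Libraries of polyadenylated RNA from 20 kidneys were made with a stranded kit. Per the labels and the methods, the authors trimmed reads with Cutadapt, mapped them with STAR 2.6.0c to GRCm38 and counted them with Rsubread on GENCODE models. Whether counting used strand is unknown here, and without it reads of Fgg cannot be told apart from those of the antisense gene over its start. The deposited values are raw counts per gene symbol, with no normalization and no pooling, and 0 columns or rows were left out. Chain genes and gene lists were chosen with earlier results of these data known.

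Each comparison was fitted in R 4.3.3 with edgeR 4.0.16 (TMM, filterByExpr, glmQLFit, glmQLFTest, Benjamini-Hochberg adjustment over all genes): genotype on the 10 libraries of each day, the change between days on the 10 libraries of each genotype, and, from the full set of 20, how far the genotype effect at day 10 exceeds that at day 5. Intervals of fold changes at day 5 use the t distribution with edgeR's residual degrees of freedom. CPM used TMM-scaled total counts, and levels per kb used exon bases from GENCODE vM21, found for 23334 of 24421 symbols. Log2 CPM for principal components and profiles used a prior count of 2. Ratios were compared by exact permutation and correlations by 100000 permutations (SciPy 1.17.1). Named genes were the chains, up to 4 members per list by smallest p at day 10 with a mean of 1 CPM or more, regulators and clotting genes fixed by name (2 are not reported here), up to 4 neighbours a side, up to 3 markers per cell type with the highest mean CPM and 5 genes of like profile per chain. Alb, F2, Cyp2c29, Gp6, Map9, Mcl1 and Fh1 were named after their values were seen. Labels number the replicates within each group, and nothing states that equal numbers are related, and p-values cover the spread between these kidneys. No 2 libraries of a group were alike within counting error (chi-square per degree of freedom from 7.84 to 397 over 40 pairs). Scripts were tested on simulated counts. Alternatives were DESeq2 1.42.0, RLE scaling, no filter or 1 CPM in 5 libraries, a replicate block, a covariate for Y-linked transcripts, 1 fit of all libraries, other thresholds, windows and profile scaling, and leaving out libraries. RefSeq ends for length, ratios without Fh1-/- day 10 replicates 1 and 3, and values without replicate 2 were chosen after seeing the data. Depth limits Fgb most, at 5 to 111 reads outside the Fh1-/- day 10 group.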

Additional observations from a re-analysis of the deposited data

Results flagged for a closer look

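Fgb was at 0.291 CPM (5 reads) in Fh1-/- day 5 replicate 3, far below the other 4 libraries of its group on the log2 scale (Dixon ratio 0.787, critical value 0.71). It was the 1 such library among 24 groups of chain levels and ratios examined, and chance alone gives about 1 in 20.

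The genotype difference of the chains at day 10 exceeded that at day 5 by 6.42 for Fga, 8.08 for Fgb and 7.06 for Fgg on the log2 scale in the fit of all 20 libraries. The genes were chosen by this difference, so the values are a description.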

How the results depend on the processing

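Of 535 recomputed values, 510 kept their direction and their side of the threshold, or moved by less than 1 SD. This rule is loose, since the log2 SD of the chains in the Fh1-/- day 10 libraries alone was 1.76 to 3.09. Differences that had not passed needed only to keep their sign and not pass, and list counts of 0 only to stay at 0. The total is therefore a description and does not measure how firm the results are. The day 10 log2 fold changes ranged from 5.86 to 6.98 for Fga, 7.27 to 8.67 for Fgb and 6.94 to 7.91 for Fgg over all alternatives. The Fga difference at day 5 was between -0.063 and 0.22 when each library was left out, and changed sign without Fh1-/- replicate 1, Fh1+/+ replicate 1 or Fh1+/+ replicate 3, at -0.031, -0.063 and -0.023. Its change between days in Fh1+/+ was between -0.12 and 0.55, and -0.12 without Fh1+/+ day 10 replicate 1. No alternative made a day 5 or Fh1+/+ difference of a chain pass the test.

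Among ratios, when each library was left out, Fgb to Fga at day 5 was between -0.32 and 0.52 (0.52 without Fh1-/- replicate 3, 0.32 and 0.054 without Fh1+/+ replicates 1 and 3). Fgb to Fgg between days in Fh1+/+ was between -0.057 and 0.38 (-0.057 without day 5 replicate 4, -0.0033 without day 10 replicate 4). Fgb to Fgg at day 10 was between -0.053 and 0.60 (-0.038 without Fh1+/+ replicate 1, -0.053 and -0.050 without Fh1-/- replicates 1 and 3), and -0.38 without both Fh1-/- replicates. Without the 2 farthest libraries the correlation was 0.645 for Fgb and Fgg and 0.50 for Fga and Fgg.

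List members called higher at day 10 were 0 with edgeR, 19 with DESeq2, 12 with the adjusted p at 0.05 and fold size ignored, 21 in 1 fit of all libraries, and 0 to 11 when each library was left out, with 11 without Fh1-/- replicate 2. Members called lower were 0, 2, 2 and 3 in the first 4 of these. Over all genes 4, 501, 270, 571 and, without Fh1-/- replicate 2, 167 were called higher (0.0279%, 3.49%, 1.88%, 3.82% and 1.15%), and 4, 295, 136, 267 and 68 lower. Of the 5 genes nearest to each chain, 2, 1 and 2 were shared with profiles scaled to the same SD. The cause of these differences was not tested.

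Same-numbered libraries did not deviate together (r from -0.51 to 0.33). With the replicate number as a block the day 10 values were 6.21 for Fga, 7.71 for Fgb and 7.25 for Fgg. Over all genes, calls at day 10 went from 4 higher and 4 lower to 0 and 0, and at day 5 from 3 higher and 2 lower to 0 and 0. The day 10 calls include Fgg, which was chosen by this contrast, so its place among them is not a test. No list member was called with or without the block.

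Counts over the whole gene limit what the Fh1 level shows, Fgb levels outside the Fh1-/- day 10 group rest on few reads, and levels of chains per kb depend on the gene models.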
